A study of Mus musculus with 6 samples.

Results

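The nuclear genes for the subunits of respiratory complexes II to V were examined in 3T3-L1 adipocytes with and without knockdown of Rbms1, which encodes an RNA-binding protein. Members were taken by gene name, as the rows whose name begins with Uqcr, Atp5 or Cox followed by a digit from 4 to 8, together with Sdha, Sdhb, Sdhc, Sdhd and Cyc1, and without pseudogenes marked -ps. This gave 48 of the 45706 genes in the counts table, with 4 in complex II, 9 in complex III, 18 in complex IV and 15 in complex V. The remaining 2, Atp5s and Atp5sl, carry an Atp5 name but do not encode subunits of the ATP synthase. Subunits that carry other names in the table were not included.

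3T3-L1 is a mouse embryonic fibroblast line that turns into adipocytes when given a differentiation cocktail, here IBMX, insulin, dexamethasone and rosiglitazone. RNA was collected on day 7 of differentiation from 3 scrambled control (scr ctrl) samples, which carried a scrambled shRNA, and from 3 RBMS1 knockdown (RBMS1KD) samples, which carried an Rbms1 shRNA. Both shRNAs were delivered by lentivirus, and cells with stable integration were selected with puromycin, so that both groups had passed through transduction and selection. The comparison asks how the expression of these subunits differs in adipocytes with reduced RBMS1.

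The respiratory chain of the inner mitochondrial membrane passes electrons from NADH and succinate to oxygen and uses the energy released to pump protons. Complex II is succinate dehydrogenase, which also works in the tricarboxylic acid cycle. Complex III passes electrons from ubiquinol to cytochrome c, and complex IV, cytochrome c oxidase, passes them on to oxygen. Complex V is the ATP synthase, a rotary enzyme that makes ATP as protons flow back through it. Complex II is built from nuclear-encoded subunits alone, whereas complexes III, IV and V join nuclear-encoded subunits to a few encoded in mitochondrial DNA. Mitochondria multiply as 3T3-L1 cells become adipocytes, and several complex IV subunits have a second isoform known from heart, skeletal muscle and brown fat.

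Total counts ranged from 3142699 to 5985179 in the scr ctrl samples and from 6173311 to 11073111 in the RBMS1KD samples. Ribosomal RNA genes held 43.0% of the counts in scr ctrl replicate 2, where in the other 5 samples they held 8.12% to 17.8%. Levels are given as counts per 1000000 (CPM) of the library size multiplied by its TMM factor, which scales the libraries to one another. Rbms1 itself was at 113, 102 and 99.6 CPM in scr ctrl replicates 1, 2 and 3 and at 49.2, 61.4 and 84.0 CPM in RBMS1KD replicates 1, 2 and 3, and its adjusted p (edgeR quasi-likelihood, Benjamini-Hochberg) was 0.185. Adipoq, which encodes the adipocyte hormone adiponectin, was between 1056 and 2649 CPM in the 6 samples, and the 4 macrophage genes examined summed to between 1.20 and 3.27 CPM. Unless another test is named, each adjusted p below comes from this edgeR test over all 11440 genes that passed its filter on low counts, and a gene was called at an adjusted p of 0.1 or less.

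Subunit genes of these complexes were mostly lower in RBMS1KD adipocytes, by small amounts that were seldom separable from the spread between replicates gene by gene. Of the 48 members, 44 passed the filter, and 39 of these had a log2 fold change below 0, against 49.6% of all genes tested. The median log2 fold change was -0.34 for the members and 0.0044 for all genes tested. This direction is relative to the TMM scaling, since with library sizes alone the medians were 0.052 for the members and 0.37 for all genes, and 17 members were below 0. With the trends of each sample with GC content and transcript length removed, the median of the members was -0.20. In 17 members the highest knockdown sample lay under the lowest control, as it did in 9.55% of all genes tested, and in no member did the lowest knockdown sample lie above the highest control (8.96% of all genes). An unadjusted p under 0.05 with a lower level was found for 15 members and for 6.98% of all genes, and with a higher level for no member by edgeR and for 5.45% of all genes. By edgeR, an unadjusted p under 0.05 in either direction was found for 8 members with the GC and length trends removed. It was found for 1 with library sizes alone. It was found for 6 without scr ctrl replicate 2, 5 without RBMS1KD replicate 2 and 25 without RBMS1KD replicate 1. Cox4i1 alone was called, and it was lower, while 1.22% of all genes tested were called (0.909% lower and 0.315% higher). With library sizes alone, 42 genes were called lower and 84 higher. DESeq2 called 2 members, Cox4i1 and Cox7a1, both lower, and 2.13% of all its genes lower and 1.09% higher. Under edgeR's earlier quasi-likelihood estimate, the default of its version, Cox4i1 was not called (adjusted p = 0.107) and 0 members were, 13 of them with an unadjusted p under 0.05. Cox4i1 also lost its call when any 1 sample other than RBMS1KD replicate 1 was left out, and without that replicate 6 members were called, all lower, as were 3.63% of all genes tested in that fit (5.94% were called in either direction). The members were described as a list with no test of the list, since genes are not replicates. In bulk RNA, fewer adipocytes and less RNA per adipocyte cannot be told apart.

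**Figure D1:**
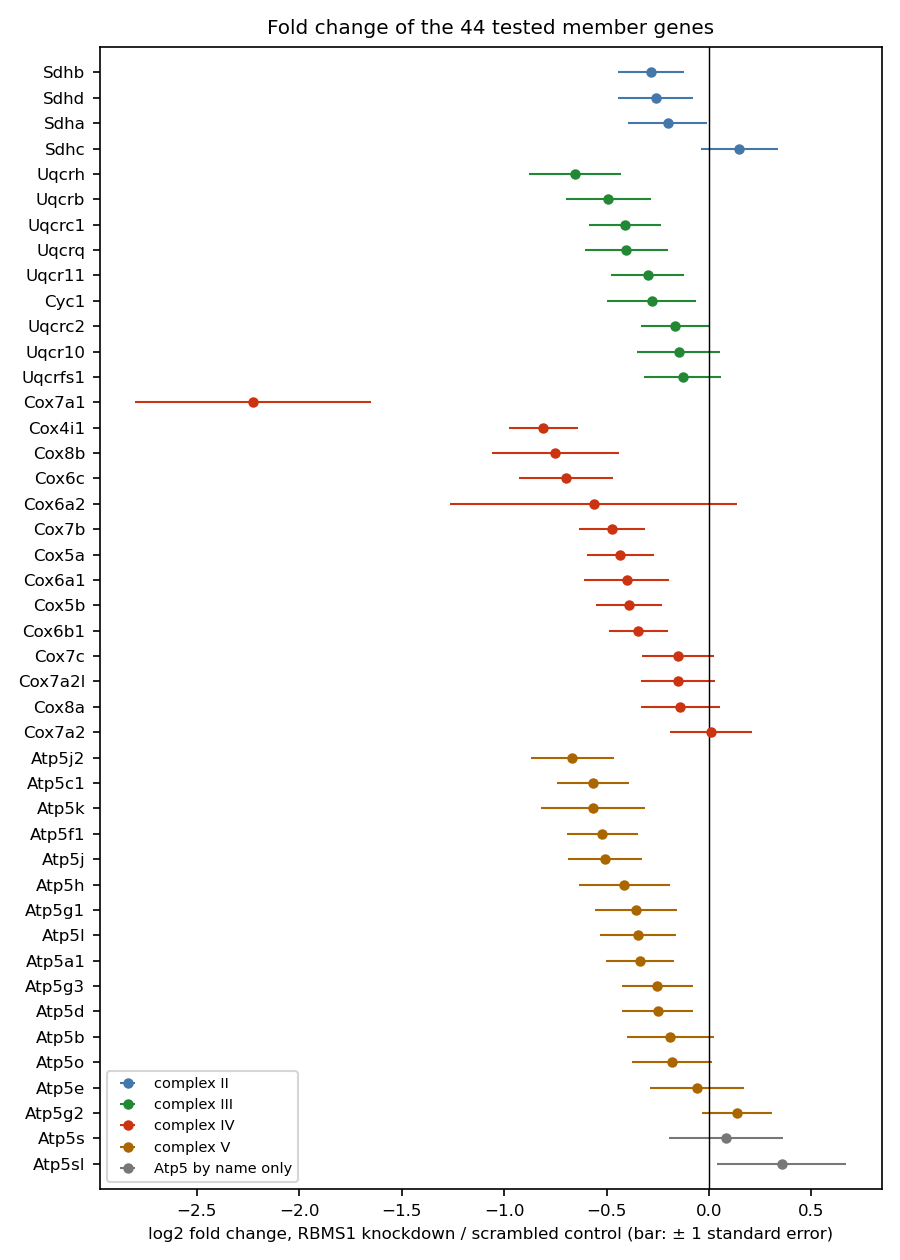
Log2 fold change of RBMS1 knockdown against scrambled control (horizontal axis) for the 44 tested members (vertical axis), coloured by complex, with bars of ± 1 standard error from edgeR. Most points lie left of 0, from -2.22 for Cox7a1 to 0.36 for Atp5sl, and the 5 genes right of 0 are Sdhc, Cox7a2, Atp5g2, Atp5s and Atp5sl. Levels were scaled by TMM, and with library sizes alone 17 of the 44 genes were below 0.

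The 3 knockdown samples were not alike. For each member, the log2 level in a sample was taken relative to its mean in the controls, with 0.5 CPM added. The median of these values over the 44 members was -0.13 in RBMS1KD replicate 1, -0.55 in replicate 2 and -0.33 in replicate 3, and lay between -0.056 and 0.056 in the controls. Below the control mean were 28 of the 44 members in RBMS1KD replicate 1, 41 in replicate 2 and 39 in replicate 3. RBMS1KD replicate 1 was thus close to the controls for many of these genes, and RBMS1KD replicate 2 was the lowest. Rbms1 had another order, with its lowest level in RBMS1KD replicate 1. The median log2 fold change of the members was -0.43 without RBMS1KD replicate 1 and -0.19 without RBMS1KD replicate 2.

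The markers of adipocytes had the same order among the knockdown samples. All 13 had a log2 fold change below 0 (median -0.43), 5 were lower without overlap between the groups (9.55% of all genes tested), and Retn, the gene of resistin, was called (adjusted p = 0.0967 by edgeR, where 1.22% of all genes were called), a call lost under 12 of the 17 alternatives, among them the removal of any 1 sample but RBMS1KD replicate 1. Their summed level was between 24806 and 27669 CPM in the controls and was 22794, 12923 and 15242 CPM in RBMS1KD replicates 1, 2 and 3. Much of this sum was Lpl, at 12275, 11958 and 14512 CPM in the controls and 10210, 5350 and 5595 CPM in the knockdown samples. On the log2 scale used above, the median of the 13 markers was -0.072, -0.82 and -0.57 in RBMS1KD replicates 1, 2 and 3. Markers of preadipocytes and fibroblasts summed to between 8151 and 10058 CPM in the controls and to 5652, 10812 and 9831 CPM in the knockdown samples, so that RBMS1KD replicate 1 had the lowest sum of all samples. Of the 7 tested, 5 were below 0 (median -0.24) and none was called by edgeR, with an unadjusted p under 0.05 for Pdgfra (log2 fold change -0.87) and Dlk1 (-0.84), which were lower in all knockdown samples, while Fn1 was at 0.52. The part of these markers, and of the unequal depth and ribosomal share of the libraries, in the lower level of the subunit genes was not tested.

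**Figure D2:**
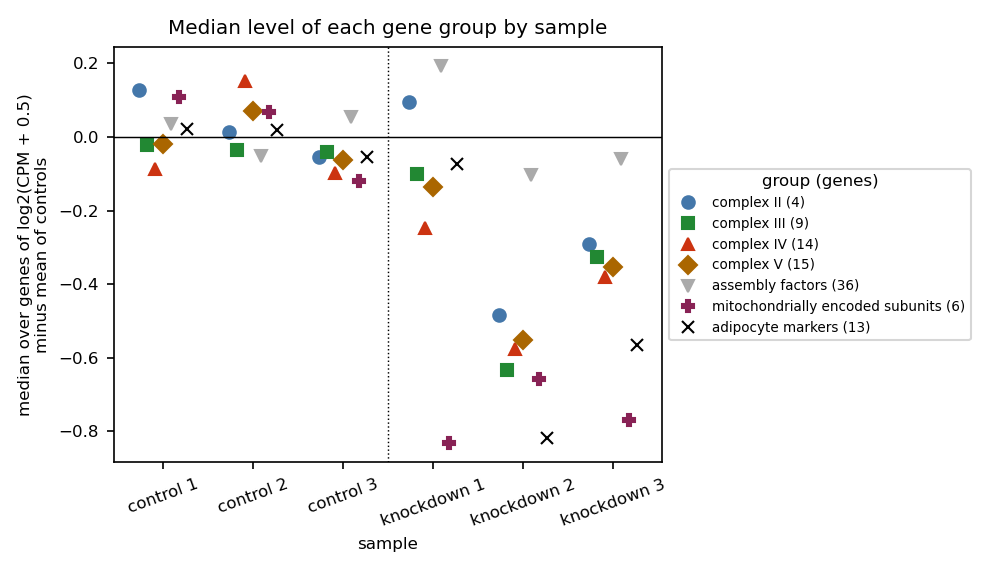
Median over the genes of each group (vertical axis, log2 of CPM + 0.5 minus the mean of the controls) in each of the 6 samples (horizontal axis), with the number of tested genes of each group in the key. Complexes II to V were lowest in RBMS1KD replicate 2, as were the adipocyte markers, while the mitochondrially encoded subunits lay between -0.83 and -0.66 in all 3 knockdown samples.

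Complex II showed no called gene by edgeR or DESeq2 and none with an unadjusted p under 0.05 by edgeR, and its members overlapped between the groups. Sdha, which encodes the flavoprotein that oxidises succinate, was at 378, 442 and 427 CPM in scr ctrl replicates 1, 2 and 3 and at 461, 298 and 326 CPM in RBMS1KD replicates 1, 2 and 3. RBMS1KD replicate 1 thus held the highest level and the other knockdown samples the lowest (log2 fold change -0.20, standard error 0.19, adjusted p = 0.731 by edgeR). Sdhb, the gene of the iron-sulfur subunit, was at 83.8, 73.0 and 69.5 CPM in the controls and at 70.6, 53.3 and 62.0 CPM in knockdown cells (log2 fold change -0.28, standard error 0.16). The membrane anchor gene Sdhd was at 79.8, 64.5 and 71.9 CPM against 73.9, 49.1 and 57.9 CPM (log2 fold change -0.26, standard error 0.18). The other anchor gene, Sdhc, went the other way in value, with 82.7, 80.9 and 68.0 CPM in the controls and 100.8, 64.8 and 90.9 CPM in knockdown cells. Its log2 fold change was 0.15 with a 95% interval from -0.28 to 0.57, and it became -0.093 once the median of each chromosome was removed from each sample. All 4 adjusted p were between 0.517 and 0.806 by edgeR.

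All 9 complex III genes were below 0 (49.6% of all genes tested), with log2 fold changes from -0.65 to -0.13 (median -0.30). In 3 of them, Uqcrh, Uqcrc1 and Uqcr11, every knockdown sample lay below every control, as in 9.55% of all genes tested. No gene of this complex was called by edgeR or DESeq2. By edgeR, 3 had an unadjusted p under 0.05 with a lower level, as had 6.98% of all genes tested. Uqcrh, the gene of the hinge protein that helps cytochrome c meet the complex, was at 50.5, 96.8 and 66.2 CPM in scr ctrl replicates 1, 2 and 3 and at 45.1, 42.3 and 47.7 CPM in the RBMS1KD samples. The knockdown samples lay close together and the controls were spread, with scr ctrl replicate 2 the highest (log2 fold change -0.65, standard error 0.23, adjusted p = 0.270 by edgeR). Without scr ctrl replicate 2, the log2 fold change of Uqcrh was -0.38. Uqcrc1, a core protein gene, was at 259.7, 227 and 241 CPM in the controls and at 217, 145 and 185 CPM in knockdown cells (log2 fold change -0.41, standard error 0.17, adjusted p = 0.386 by edgeR). Uqcr11, the gene of a small subunit, was at 78.5, 82.4 and 90.3 CPM against 74.9, 52.8 and 76.3 CPM, and its highest knockdown value was thus just under its lowest control. Its log2 fold change of -0.30 (standard error 0.18) was 0.0056 once the trend of each sample with GC content and transcript length had been removed.

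The 4 genes of the core proteins, of the Rieske iron-sulfur protein and of cytochrome c1 lay at a median log2 fold change of -0.22, and the 5 small subunit genes at one of -0.40, a difference that was not tested. Uqcrfs1, the Rieske gene, was at 103, 104 and 113 CPM in the controls and at 119, 72.7 and 100.5 CPM in knockdown cells, with the groups overlapping (log2 fold change -0.13, 95% interval -0.55 to 0.30). For Cyc1, the gene of cytochrome c1, the log2 fold change came to -0.28 (standard error 0.22), and for the core protein gene Uqcrc2 to -0.16 (standard error 0.17). Among the small subunits, Uqcrb was at 79.5, 114 and 89.6 CPM in the controls and at 85.5, 60.0 and 55.6 CPM in knockdown cells, where RBMS1KD replicate 1 lay within the control range. With all samples kept, Uqcrb stood at -0.49 on the log2 scale and was not called (adjusted p = 0.377 by edgeR). Leaving out single samples moved this value between -0.70 and -0.34. Its only call came without RBMS1KD replicate 1 (-0.70), in a fit that called 5.94% of its genes. The other small subunit genes, Uqcrq and Uqcr10, had log2 fold changes of -0.40 and -0.15.

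Complex IV held the called gene and the widest range of changes. Of its 18 genes, 14 passed the filter, and 13 of these were below 0 (median -0.42), against 49.6% of all genes tested. In 7, every knockdown sample lay below every control, as in 9.55% of all genes tested. Cox4i1 (ENSMUSG00000031818) encodes the common isoform of subunit 4, which is needed to assemble the enzyme, and lies on chromosome 8 of GRCm38 from 120668222 to 120674207. It was at 320.4, 418 and 346 CPM in scr ctrl replicates 1, 2 and 3 and at 234, 189 and 196 CPM in RBMS1KD replicates 1, 2 and 3. The groups were set apart by a wide gap, with 362 ± 50.8 CPM (SD, n = 3) in the controls and 206 ± 24.1 CPM (SD, n = 3) in knockdown cells. By edgeR its log2 fold change came to -0.81 (standard error 0.17, adjusted p = 0.0842), and to values from -0.90 to -0.69 when single samples were left out. Cox4i1 lies on a chromosome where 90.1% of the 624 tested genes were below 0, with a median log2 fold change of -0.38. Once the median of each chromosome was removed from each sample, its log2 fold change was -0.41 and its adjusted p was 0.413 by edgeR, where the alternatives as a whole gave values from 0.00226 to 0.441. It is the only member on chromosome 8, and the median of the 43 tested members elsewhere was -0.34.

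The heart and muscle isoforms of complex IV were present at low levels in these adipocytes. Cox7a1 (ENSMUSG00000074218), on chromosome 7 from 30184144 to 30186078, encodes the isoform of subunit 7A found in heart, muscle and brown fat. It had 53, 43 and 48 counts in scr ctrl replicates 1, 2 and 3 and 28, 27 and 12 counts in RBMS1KD replicates 1, 2 and 3, although the knockdown libraries were deeper. Scaled by TMM these were 8.50, 21.3 and 8.26 CPM against 4.03, 3.16 and 0.881 CPM, so that every knockdown sample lay below every control. At -2.22 (standard error 0.57), its log2 fold change was the lowest of all members tested, and its adjusted p of 0.147 by edgeR did not reach the threshold. Without scr ctrl replicate 2, its log2 fold change was -1.72 (adjusted p = 0.413 by edgeR). DESeq2 called the gene (log2 fold change -2.22, adjusted p = 0.00785), and over all alternatives the adjusted p ranged from 0.00785 to 0.413. Cox7a2, the gene of the common isoform of the same subunit, was at 60.8, 70.5 and 75.5 CPM in the controls and at 90.7, 58.0 and 59.7 CPM in knockdown cells. RBMS1KD replicate 1 was above all controls and the other knockdown samples were below them (log2 fold change 0.011, 95% interval -0.44 to 0.46). Per length of transcript, Cox7a1 made up 19.0%, 33.7% and 15.5% of the sum of both genes in the controls and 6.93%, 8.36% and 2.42% in knockdown cells.

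Cox8b, the muscle and brown fat isoform of subunit 8, was at 11.4, 8.44 and 13.6 CPM in the controls and at 4.74, 6.20 and 9.03 CPM in knockdown cells. RBMS1KD replicate 3 lay above the lowest control (log2 fold change -0.75, standard error 0.31, adjusted p = 0.362 by edgeR). The common isoform gene Cox8a was at 329, 350.4 and 296 CPM against 374, 235 and 276 CPM, with a log2 fold change of -0.14 and a 95% interval from -0.57 to 0.29. That value changed sign without RBMS1KD replicate 2 (0.013) and with the trends of GC content and length removed (0.12). Cox8b made up between 3.55% and 6.55% of the pair per length in the controls and at most 4.75% in knockdown cells, and the groups overlapped. For subunit 6A, the muscle isoform gene Cox6a2 had between 11 and 15 counts in the controls and 17, 30 and 7 counts in the knockdown samples, with a 95% interval of its log2 fold change from -2.14 to 1.02. Its partner Cox6a1 was at 351, 375 and 249.995 CPM against 293, 196 and 250.2 CPM (log2 fold change -0.40, standard error 0.21). The second isoform of subunit 4, Cox4i2, had 1, 0 and 2 counts in the controls and 0, 0 and 3 in knockdown cells. Cox6b2 had 1 count in 1 knockdown sample and none elsewhere, and Cox7b2 and Cox8c had none in any sample. These 4 genes did not pass the filter, and a count of 0 allows a level of up to between 0.220 and 1.49 CPM, that of 3 counts, depending on the sample.

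**Figure D3:**
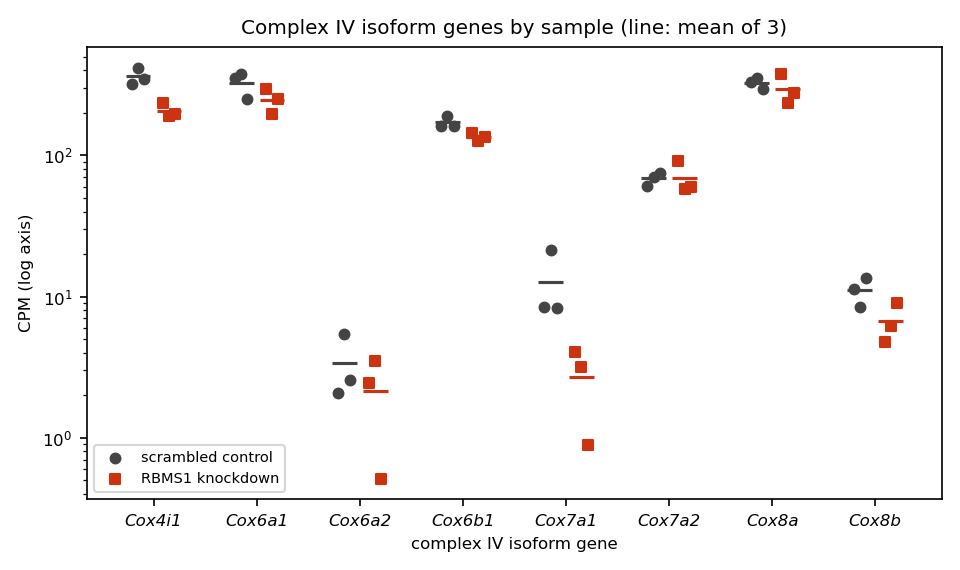
CPM on a log axis of complex IV isoform genes in the 3 scrambled control samples (grey circles) and the 3 RBMS1 knockdown samples (red squares), with a line at the mean of each group. Cox4i1 and Cox7a1 lie lower in every knockdown sample, while Cox7a2 and Cox8a overlap between the groups.

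The start regions of the isoform genes of subunits 7A and 8 are printed here because the isoforms of each subunit differed in level. Each run of 300 bases, from 250 before to 50 after the start, is taken from RefSeq on GRCm38.p6 and written 5′ to 3′ along the strand of the gene. They are chr7:30183921-30184220 on the plus strand for Cox7a1, chr9:79759804-79760103 on the minus strand for Cox7a2, chr7:140900397-140900696 on the minus strand for Cox8b and chr19:7217567-7217866 on the minus strand for Cox8a. Capitals mark matches on either strand to any of 4 patterns named after factors of respiratory genes, GCGC followed by any pair of bases and GCGC again for NRF1, CCGGAAG for GABPA, AAGATGG for YY1 and AAGGTCA for ESRRA, none of which contains another.
Cox7a1: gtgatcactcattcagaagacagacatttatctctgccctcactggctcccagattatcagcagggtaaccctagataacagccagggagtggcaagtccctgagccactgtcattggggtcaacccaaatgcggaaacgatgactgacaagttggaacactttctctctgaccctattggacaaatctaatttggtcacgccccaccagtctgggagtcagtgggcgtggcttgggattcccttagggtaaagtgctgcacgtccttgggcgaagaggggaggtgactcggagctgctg
Cox7a2: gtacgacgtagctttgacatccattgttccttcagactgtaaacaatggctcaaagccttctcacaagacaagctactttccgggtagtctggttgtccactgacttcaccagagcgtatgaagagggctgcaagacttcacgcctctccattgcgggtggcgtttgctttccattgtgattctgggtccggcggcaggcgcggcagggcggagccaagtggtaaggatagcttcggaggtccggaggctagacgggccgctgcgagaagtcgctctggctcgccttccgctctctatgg
Cox8b: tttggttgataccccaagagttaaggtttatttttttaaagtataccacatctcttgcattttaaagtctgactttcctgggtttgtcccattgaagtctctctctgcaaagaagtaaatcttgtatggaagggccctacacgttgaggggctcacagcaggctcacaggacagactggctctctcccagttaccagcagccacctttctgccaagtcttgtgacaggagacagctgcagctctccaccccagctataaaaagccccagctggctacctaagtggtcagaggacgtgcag
Cox8a: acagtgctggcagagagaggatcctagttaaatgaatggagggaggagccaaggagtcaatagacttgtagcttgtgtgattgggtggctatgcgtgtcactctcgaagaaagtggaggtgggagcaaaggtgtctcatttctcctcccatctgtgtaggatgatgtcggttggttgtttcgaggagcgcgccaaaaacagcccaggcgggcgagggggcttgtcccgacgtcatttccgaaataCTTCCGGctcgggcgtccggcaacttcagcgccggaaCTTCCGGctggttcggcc
The GABPA pattern occurs at 2 places in the region of Cox8a, and none of the patterns occurs in the other 3. Of the members, 37 had a start region in the RefSeq table, with 41 regions in all. The GABPA pattern was present in 12 of the 41 regions (29.3%), against 8.86% of all 32851 start regions, and the NRF1 pattern in 10 (24.4%), against 6.23%. The YY1 pattern was present in 6 (14.6%), against 6.34% of all regions, and the ESRRA pattern in 5 (12.2%), against 4.72%. These matches describe the letters in the regions and were not tested against the fold changes. Not matched in the table were Atp5a1, Cox4i1, Cox4i2, Cox6a2, Cox6c, Cox8c, Cyc1, Sdhc, Uqcrb, Uqcrc2 and Uqcrq.

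The remaining complex IV genes had log2 fold changes between those of Cox4i1 and Cox7a2. Cox6c was at 102, 204 and 167 CPM in scr ctrl replicates 1, 2 and 3 and at 93.9, 99.6 and 98.1 CPM in the RBMS1KD samples, which lay just under the lowest control (log2 fold change -0.70, standard error 0.23, adjusted p = 0.242 by edgeR). Cox5a and Cox5b encode matrix-facing subunits that have no second isoform here. Cox5a was at 76.6, 63.5 and 64.5 CPM against 57.1, 43.8 and 50.8 CPM (log2 fold change -0.43, standard error 0.16). Cox5b was at 186, 168 and 147 CPM against 146, 114 and 122 CPM, where the highest knockdown value and the lowest control were nearly equal (log2 fold change -0.39, standard error 0.16). Once chromosome medians were removed, Cox5b was at -0.63 on the log2 scale (adjusted p = 0.178 by edgeR). Cox7b was at 132, 145 and 117 CPM against 105, 80.3 and 98.9 CPM, with the groups apart (log2 fold change -0.47, standard error 0.16). Cox6b1, whose product lies on the side of cytochrome c, was at 163, 190.1 and 161 CPM against 144, 126 and 135 CPM, also without overlap (log2 fold change -0.34, standard error 0.14). The adjusted p of Cox5a, Cox5b, Cox7b and Cox6b1 were between 0.266 and 0.371 by edgeR. Cox7c and Cox7a2l, the latter a factor of respiratory supercomplexes, overlapped between the groups, both with a log2 fold change of -0.15 (standard error 0.18).

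**Figure D4:**
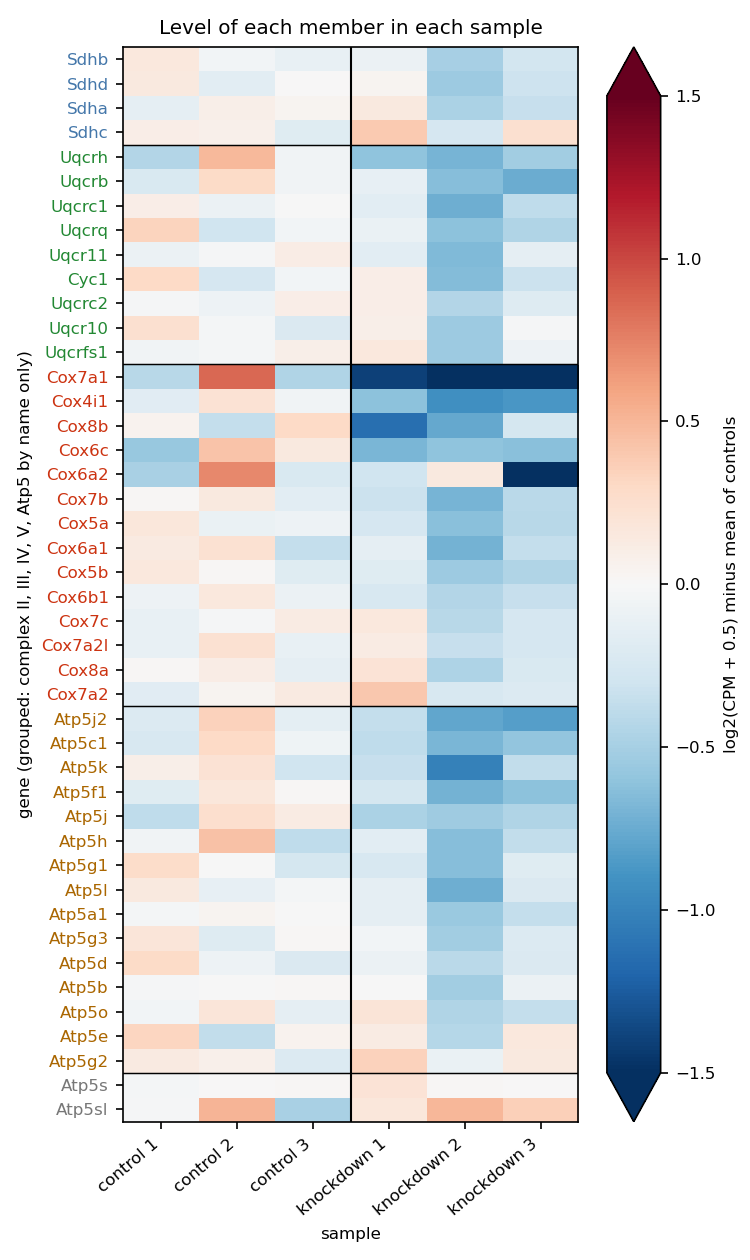
Level of each of the 44 tested members (rows, grouped by complex) in each sample (columns), as log2 of CPM + 0.5 minus the mean of the controls, with the colour scale limited to 1.5 in either direction. The columns of RBMS1KD replicates 2 and 3 are lower for 41 and 39 of the 44 genes, and that of RBMS1KD replicate 1 for 28.

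Complex V had no called gene by edgeR or DESeq2. By edgeR, 4 of its genes had an unadjusted p under 0.05 with a lower level, as had 6.98% of all genes tested. Of its 15 genes, 14 were below 0 (median -0.34), against 49.6% of all genes tested. In 7, every knockdown sample lay below every control, as in 9.55% of all genes tested. Atp5j2, which encodes subunit f of the membrane part, was at 56.4, 82.4 and 58.7 CPM in scr ctrl replicates 1, 2 and 3 and at 50.3, 37.5 and 36.3 CPM in RBMS1KD replicates 1, 2 and 3. The groups did not overlap (log2 fold change -0.67, standard error 0.20, adjusted p = 0.210 by edgeR), and without RBMS1KD replicate 1 the gene was called (log2 fold change -0.82, adjusted p = 0.0603 by edgeR, with a range of 0.0603 to 0.610 over all alternatives). Without scr ctrl replicate 2, its log2 fold change was -0.48 (adjusted p = 0.556 by edgeR). With the c ring taken apart from it, the membrane part held 3 genes, Atp5j2, Atp5k and Atp5l (median log2 fold change -0.57). In all 3, every knockdown sample lay below every control, as in 9.55% of all genes tested. The gap was narrow for Atp5k (15.4 under 15.8 CPM) and for Atp5l (77.5 under 78.4 CPM). Atp5c1, the gene of the gamma subunit that turns inside the catalytic head, was at 128, 187 and 145 CPM against 116, 94.1 and 100.1 CPM (log2 fold change -0.57, standard error 0.18, adjusted p = 0.221 by edgeR). The peripheral stalk gene Atp5f1 was at 193, 248 and 222 CPM against 184, 134 and 144 CPM (log2 fold change -0.52, standard error 0.17, adjusted p = 0.248 by edgeR). Another stalk gene, Atp5j, was at 60.4, 93.3 and 85.9 CPM against 56.5, 54.2 and 57.5 CPM, where the knockdown samples were close together just under the lowest control (log2 fold change -0.51, standard error 0.18). Atp5c1 and Atp5f1 were also called without RBMS1KD replicate 1, in a fit that called 696 of 11724 genes.

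The catalytic head, to which Atp5c1 also belongs, had a median log2 fold change of -0.25 over its 5 genes. Atp5b, the gene of the catalytic beta subunit, had the highest level per length of all members, 775 CPM per kb of transcript in the controls and 680 in knockdown cells. It was at 1464, 1482 and 1507 CPM in the controls, a narrow range, and at 1475, 1032 and 1399.5 CPM in knockdown cells. RBMS1KD replicate 1 lay within the controls and replicate 2 well under them (log2 fold change -0.19, standard error 0.21, adjusted p = 0.769 by edgeR). Atp5a1, the gene of the alpha subunit, was at 538, 565 and 546 CPM against 501, 375 and 430.2 CPM, with the groups apart (log2 fold change -0.34, standard error 0.17, adjusted p = 0.454 by edgeR). The genes of the delta and epsilon subunits, Atp5d and Atp5e, had log2 fold changes of -0.25 and -0.059, and the stalk genes Atp5h and Atp5o ones of -0.41 and -0.18. In each of these 4, the groups overlapped.

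The ring of c subunits, which turns as protons pass, is encoded by 3 genes whose mature protein is the same. Atp5g3 was at 186, 144 and 166 CPM in the controls and at 160.3, 114 and 142 CPM in knockdown cells (log2 fold change -0.25, standard error 0.17). Atp5g1 was at 55.6, 45.7 and 38.2 CPM against 39.0, 29.5 and 40.5 CPM (log2 fold change -0.36, standard error 0.20). Atp5g2 was at 85.8, 81.9 and 67.3 CPM against 99.2, 72.7 and 86.1 CPM (log2 fold change 0.14, 95% interval -0.25 to 0.52). None of the 3 was called, and the groups overlapped for each. Per length of transcript, Atp5g2 made up 34.4%, 39.1% and 31.9% of the sum of the 3 genes in the controls and 41.6%, 42.2% and 40.8% in knockdown cells, with every knockdown sample above every control. Atp5g3 made up between 56.1% and 64.2% in the controls and between 54.1% and 55.0% in knockdown cells. These shares are given without a test. The estimated counts of 10 members, Atp5f1, Atp5g1, Atp5g2, Atp5h, Atp5l, Atp5o, Cox5b, Cox7a2l, Cox7c and Uqcrb, were not whole in at least 1 sample (by more than 0.01), as when reads are divided among genes, and their values are uncertain to that degree. Atp5s and Atp5sl, the genes that share only the name, had between 4.47 and 9.43 CPM and log2 fold changes of 0.084 and 0.36.

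**Figure D5:**
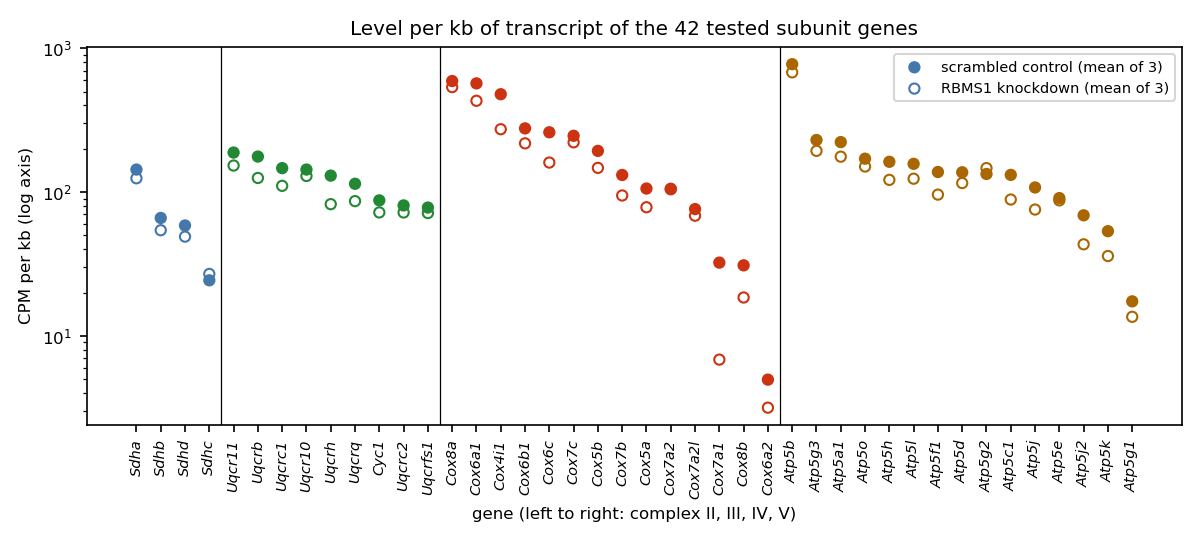
Mean CPM per kb of transcript on a log axis for the 42 tested subunit genes, ordered within complexes II, III, IV and V, with filled points for the scrambled control and open points for RBMS1 knockdown. Atp5b is highest at 775 in the controls and Cox6a2 lowest at 4.96.

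Levels per length differed widely among the subunit genes. In the controls, complex IV genes that passed the filter ranged from 4.96 CPM per kb for Cox6a2 to 591 for Cox8a, with Cox6a1 at 569.6 and Cox4i1 at 479. Complex III genes lay in a narrower range, from 78.0 CPM per kb for Uqcrfs1 to 188 for Uqcr11. In complex II, the range was from 24.3 CPM per kb for Sdhc to 143 for Sdha. Most of these transcripts are short, and no allowance was made for the fragments that a short transcript can give, so that these levels per kb are approximate.

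The partners of these subunits did not all share their direction. The genes listed as assembly factors, most of them for proteins that build complexes II to V without staying in them, were split nearly evenly. Of 36 tested, 19 were below 0 (median log2 fold change -0.027). The list, which also holds Atpif1, Lrpprc and Taco1, had none called by edgeR. By the same test, 3 had an unadjusted p under 0.05, which 12.4% of all genes tested had. Those 3 were Cmc2 and Coa3, both needed to build complex IV, at -1.16 and -0.73 on the log2 scale (adjusted p = 0.179 and 0.210 by edgeR), and Cox15, an enzyme of heme A synthesis, at 0.45 (adjusted p = 0.395 by edgeR). Of 13 tested genes for cytochrome c and for the synthesis of ubiquinone, the mobile carriers that feed complexes III and IV, 11 were below 0 (median -0.18), and none was called by edgeR, while 1 had an unadjusted p under 0.05, again a share under that of all genes. That gene was Coq9, which is needed for ubiquinone synthesis, at 98.7, 117 and 92.9 CPM against 74.3, 49.8 and 61.1 CPM (log2 fold change -0.73, adjusted p = 0.136 by edgeR). Cycs, the gene of cytochrome c, was at 216, 306 and 271 CPM against 288, 202 and 146 CPM, with the groups overlapping. The 6 mitochondrially encoded subunits of complexes III, IV and V were all below 0 (median -0.65), and 5 of them were lower without overlap between the groups, as were 9.55% of all genes tested. The gene mt-Co2, for a catalytic subunit of complex IV, was called, as were 1.22% of all genes, at 1039, 1947 and 434 CPM against 329.6, 268 and 222 CPM (log2 fold change -2.06, standard error 0.45, adjusted p = 0.0987 by edgeR). That call was lost under 11 of the 17 alternatives, among them the removal of any 1 sample but scr ctrl replicate 3 or RBMS1KD replicate 1, and without scr ctrl replicate 2 the log2 fold change was -1.43. In RBMS1KD replicate 1, where the nuclear subunit genes were closest to the controls, the median of these 6 was -0.83.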

How the data were processed

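RNA from 3 scrambled control and 3 RBMS1 knockdown samples, described as biological replicates, was sequenced as ribosomal RNA-depleted stranded libraries. The authors used Trim Galore 0.6.7 for trimming, STAR 2.7.10a for alignment (GRCm38) and Salmon 1.9.0 for quantification, and deposited estimated counts per gene without normalization. The annotation release is not given in the sources used here. After rounding to whole numbers, edgeR 4.0.16 was run under R 4.3.3 (filterByExpr, TMM, estimateDisp, glmQLFit with the estimate introduced in version 4, glmQLFTest) on the condition alone over 11440 of 45706 genes, with Benjamini-Hochberg adjustment. The threshold is that of the study's Results. Positions and lengths of principal transcripts came from GENCODE M21 (GRCm38), which held 11402 of the tested genes. The precision is limited by totals of 3142699 to 11073111 counts, and floors and intervals at 0 counts cover counting error only.

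The members, the lists and the rule for named genes were chosen with earlier results of these data known. That rule took called members, in each complex the smallest p, the highest log2 fold change and the highest level per kb, the complex II and c-ring genes, the complex IV isoform groups, members that did not pass the filter, and up to 3 genes of smallest p per list. Further members were named after their values were seen. The alternatives were DESeq2 1.42.0, limma-voom (limma 3.58.1), RLE factors, library sizes alone, no filter, at least 1 CPM in 3 samples, a replicate block, each sample left out, loess trends (span 0.3) on length and GC content taken out, and chromosome medians taken out (at least 50 tested genes). The version 4 quasi-likelihood estimate was adopted after the calls under it and under edgeR's earlier estimate, the default of this version, had been seen, to keep to the processing of an earlier analysis of these data. The earlier and the robust estimates were added as alternatives after seeing the data. The edgeR, DESeq2 and limma-voom fits and the edgeR fits with the block, the trends and the chromosome medians were tested on simulated data.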

Additional observations from a re-analysis of the deposited data

How the results depend on the processing

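The number of members called was 1, Cox4i1. It was 2 by DESeq2 and with no filter on low counts (Cox4i1 and Cox7a1), 0 with library sizes alone, the replicate block, the GC and length trends removed, the chromosome medians removed, and edgeR's earlier quasi-likelihood estimate, and between 0 and 6 with each sample left out. All calls were lower. Of all genes, 140 were called, and 431 by DESeq2, 268 with no filter, 126 with library sizes alone, 132 with the trends removed, 73 with the chromosome medians removed, 122 by the earlier estimate and between 12 and 696 with each sample left out. The adjusted p of Cox4i1 was 0.107 by edgeR's earlier estimate, 0.156 with the GC and length trends removed and 0.413 with the chromosome medians removed, and between 0.00226 and 0.441 over all alternatives. The median log2 fold change of the members was 0.052 with library sizes alone, where the median of all genes was 0.37, so that relative to it the members were at -0.32. It was -0.20 with the GC and length trends removed and between -0.43 and -0.19 with each sample left out. With library sizes alone, the log2 fold changes were above 0 for Atp5b (0.20), Atp5g1 (0.016), Atp5g3 (0.10), Cox6a1 (0.0049), Cox6b1 (0.055), Cox7a2l (0.26), Cox8a (0.25), Sdha (0.19), Sdhb (0.084), Sdhd (0.096), Uqcr11 (0.084) and Uqcrfs1 (0.25). Cox7a2, near 0, was at -0.0092 by limma-voom, -0.015 with the replicate block, -0.019 with the chromosome medians removed, and between -0.22 and 0.14 with each sample left out. Sdhc was at -0.093 with the chromosome medians removed, and with the GC and length trends removed Cox8a was at 0.12 and Uqcr11 at 0.0056. With each sample left out, Cox8a lay between -0.34 and 0.013 and Uqcrfs1 between -0.29 and 0.058, both above 0 without RBMS1 knockdown replicate 2 alone. The cause of these changes was not tested. Of 408 values of 24 named genes under 17 alternatives, 372 kept their direction and their side of the threshold. Samples with the same replicate number did not deviate together (correlations across genes of -0.14, 0.078 and -0.028 for numbers 1, 2 and 3). In the fit with the replicate block, 0 members and 39 of all genes were called by edgeR, 14 members had an unadjusted p under 0.05, and the adjusted p of Cox4i1 was 0.214. By edgeR, 15 members had an unadjusted p under 0.05 in the main fit. That number was 8 with the GC and length trends removed, 1 with library sizes alone and between 5 and 25 with each sample left out.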
